A study of Mus musculus with 6 samples.

Results

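H3K4me1 at the genes of 7 transcription factors of skeletal muscle was examined in the mouse whisker pad at embryonic day 12. H3K4me1 is the singly methylated form of lysine 4 of histone H3, which is found at active and poised enhancers and beside many start sites. The genes were Myf5, Myf6, Myod1, Myog, Msc, Tcf21 and Lbx1, chosen by name from the 21755 protein-coding genes annotated on the autosomes and X. Their peaks were those that overlapped the gene body or the 5 kb on either side. Peaks up to 150 kb from a start site were added where that was the nearest protein-coding start site to the middle of the peak. This gave 12 peaks over the 3 replicates, 4, 5 and 3 of the 16788, 12969 and 13998 peaks in replicates 1, 2 and 3. They merged into 6 of 19251 regions.

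The series holds 6 samples from wild-type pads of strain B6/J2, dissociated to single cells. CUT&Tag, which uses an antibody to tether a transposase to the mark, was made for H3K4me1 in 3 of them, and 3 control IgG samples were not analysed here. The 3 pads are called replicates 1, 2 and 3 after the numbers in their titles. All cell types of the pad were assayed together, so fewer cells of a type and less of the mark in each cell cannot be told apart. The methods of the study give a single nominal sequencing depth for all libraries. Its supplementary quality controls include a panel on sequencing depth, whose values were not used here. The peak lists hold no numbers of reads, so the depth reached by each was not measured here. A gene without a peak is therefore not shown to lack the mark. The source name of replicates 2 and 3 is adult kidney, against whisker pad in their titles, which were used. Replicate 1, which has whisker pad in both labels, had peaks at the same 4 of the 7 genes as replicate 2. Replicate 3 stood apart in that it lacked many GC-rich regions held by replicates 1 and 2, so values are given by replicate.

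Myf5, Myf6, Myod1 and Myog are the basic helix-loop-helix factors that commit cells to skeletal muscle and drive their differentiation. The helix-loop-helix factors Msc (musculin) and Tcf21 (capsulin) act with them in precursors of the muscles of the pharyngeal arches, and Lbx1 is a homeobox factor of migrating muscle precursors and of spinal interneurons. Most muscles of the head arise from cranial mesoderm, and those of facial expression, which move the whiskers, come from the arch behind the jaw.

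The question was whether muscle precursors of the head show in the peaks, and the 7 genes fell into marked and unmarked ones. A peak lay in the window of Myf5, Myf6, Myog and Lbx1, and in none of the 3 replicates in that of Myod1, Msc or Tcf21. By replicate, 4, 4 and 3 of the 7 genes had a peak, on average 3.67 ± 0.577 (SD, n = 3). Of all protein-coding genes, 24.9, 22.6 and 19.6% had one in replicates 1, 2 and 3. In all 3 replicates, Myf5, Myf6 and Myog had a peak, which was so for 15.5% of all genes. The muscle factor genes are short, from 1885 to 3227 bp, and of the 1060 genes in that range 8.21% had a peak in all 3 replicates. Windows of Myf5 and Myf6 overlap, and in replicate 3 the only peak in the window of Myf6 was the one over Myf5. Counting only peaks nearest to a gene's own start site, 4, 4 and 2 of the 7 genes had a peak.

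The marked genes carried the mark at the start of the gene itself. In replicates 1 and 2, a peak covered the start site of Myf5, Myf6, Myog and Lbx1, 4 of the 7 genes, which was so for 4.05% of all genes. Myf5 and Myog had it in all 3 replicates, which was so for 1.80% of all genes. These counts describe 7 genes picked by name, and no test was made on them.

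The 250 bases before the RefSeq start sites of Myf5 and Myog are shown, since they lay wholly (100%) under a peak in each of the 3 replicates. They are from GRCm38.p6 and run 5′ to 3′ on the strand of the gene, chr10:107486135-107486384 on the minus strand for Myf5 and chr1:134289754-134290003 on the plus strand for Myog. Capitals mark CANNTG, the E-box that helix-loop-helix factors bind, and a loose spelling of the MEF2 motif, CTA and TAG with any 4 bases between them, searched on both strands.
Myf5 promoter: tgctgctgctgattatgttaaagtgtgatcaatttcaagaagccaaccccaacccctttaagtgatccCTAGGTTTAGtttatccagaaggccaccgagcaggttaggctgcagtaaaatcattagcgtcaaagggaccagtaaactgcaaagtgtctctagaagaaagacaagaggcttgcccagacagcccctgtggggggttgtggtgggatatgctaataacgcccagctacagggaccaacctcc
Myog promoter: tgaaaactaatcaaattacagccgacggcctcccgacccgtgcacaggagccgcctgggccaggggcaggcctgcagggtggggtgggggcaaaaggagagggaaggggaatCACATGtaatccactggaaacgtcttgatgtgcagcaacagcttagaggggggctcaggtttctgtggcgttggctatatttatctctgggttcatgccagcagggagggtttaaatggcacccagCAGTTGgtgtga

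The Myog stretch held 2 E-boxes and the Myf5 stretch held 0. The MEF2 spelling occurred once before Myf5, as CTAGGTTTAG, and not before Myog, and other spellings were not searched. Before Myog stood ctatatttat, which differs from the searched spelling only in its last base. Since the spelling fixes its last base and takes any bases in its middle, these counts cannot tell which stretch holds a MEF2 site. Among 16433 promoters of protein-coding genes cut to the same length, 62.3% held CANNTG, 11.8% CAGCTG, itself a CANNTG and the E-box preferred by the MyoD family, and 3.01% the MEF2 spelling. A match describes the letters and not a bound site. RefSeq promoter entries were matched for 3 of the 7 genes, Myf5, Myog and Tcf21.

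**Figure D1:**
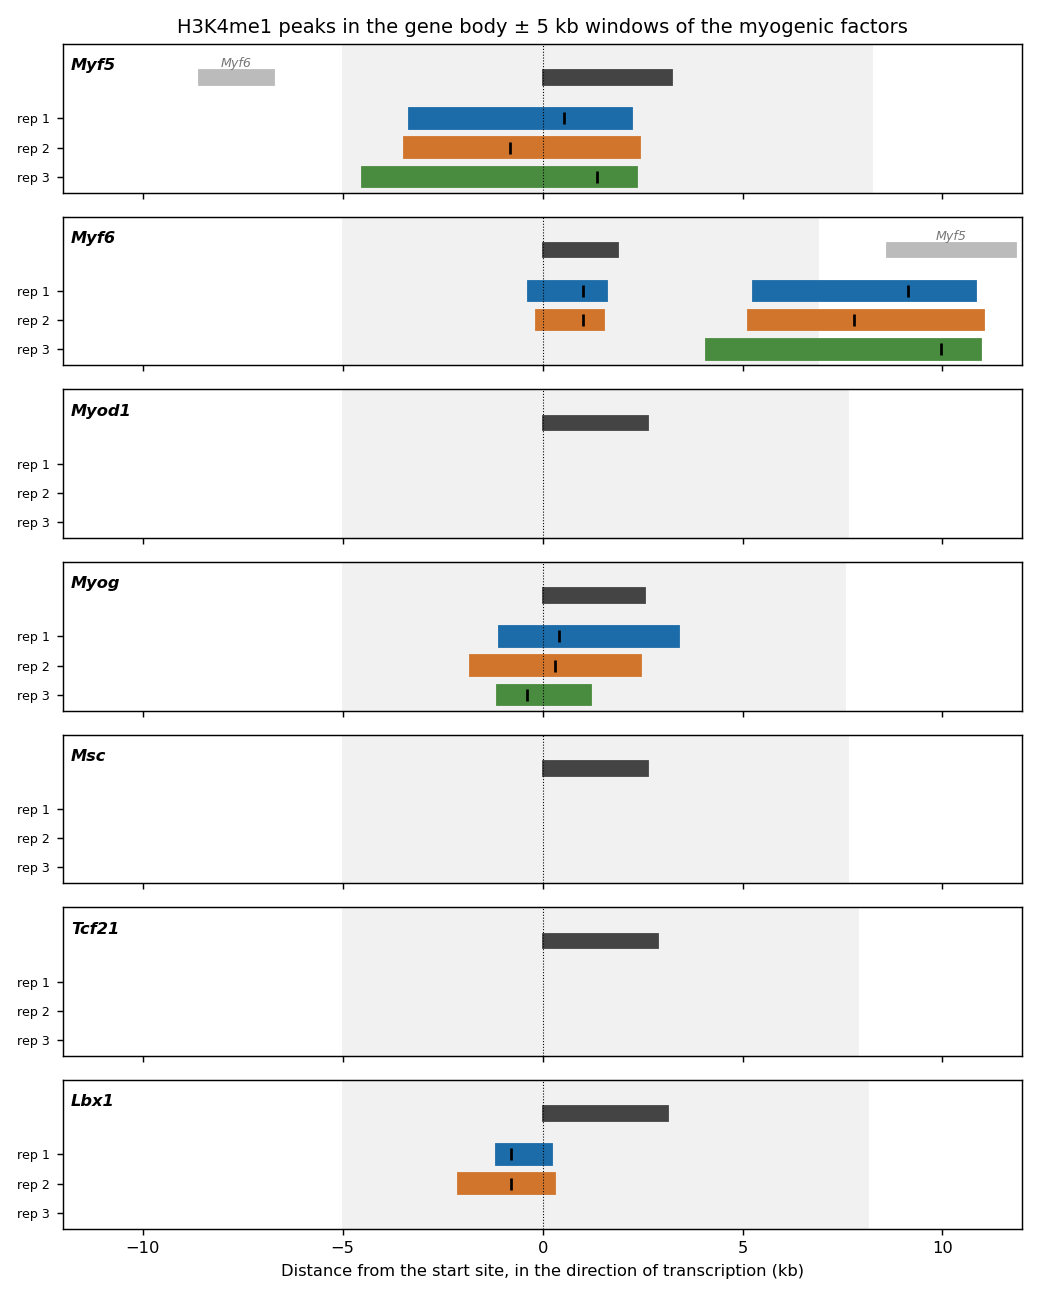
H3K4me1 peaks (coloured bars, 1 row per replicate) around each of the 7 genes, by distance in kb from the start site (dotted line) in the direction of transcription. Dark boxes are the gene, light boxes the neighbouring gene, black ticks the highest pileup and grey shading the gene body with 5 kb on either side; Myf5 and Myog have a peak over the start site in 3 replicates, Myf6 and Lbx1 in replicates 1 and 2, and the panels of Myod1, Msc and Tcf21 are empty.

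Myf5, the earliest of the family to be expressed in most muscle precursors, had the strongest peak by total signal and, of the 2 regions found in all replicates, the more regular in its extent. It lies on chromosome 10, from 107482908 to 107486134 on the minus strand. In replicate 1 the peak ran over chr10:107483906-107489485 (5580 bp), its total signal, the fragment pileup summed over its bases, was 72600, and its highest pileup was 56. In replicate 2 it ran over chr10:107483708-107489608 (5901 bp), its total signal was 89230 and its highest pileup 48. In replicate 3 it ran over chr10:107483776-107490660 (6885 bp), its total signal was 81384 and its highest pileup 60. Its end inside the gene agreed closely, whereas its end before the gene lay farther out in replicate 3. Of the merged region, 80.2% was common to all 3 replicates. The peak began 3351, 3474 and 4526 bp before the start site and ended 2228, 2426 and 2358 bp after it, and covered 69.1, 75.2 and 73.1% of the gene. Signals are not scaled to depth, so strength was read as a percentile within each list. By total signal the Myf5 peak stood at percentile 84.8, 78.4 and 85.3, with a mean of 82.8 ± 3.82 (SD, n = 3). It was long, at percentile 85.6, 81.1 and 90.4 of peak length. By highest pileup its mean percentile was 70.0 ± 16.7, and by total signal per base 65.2 ± 8.23 (SD, n = 3). The place of the highest pileup differed between replicates. It was 540 to 543 bp after the start site, in a coding exon, in replicate 1. In replicate 2 it was 821 to 824 bp before the start site, and in replicate 3 it was 1347 to 1355 bp after it, within an intron.

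Myf6, which acts in determination and again in maturing fibres, lies upstream of Myf5 with 6.72 kb between them, from 107492853 to 107494737 on the same strand. Its own peak was found in 2 of 3 replicates. In replicate 1 it ran over chr10:107493133-107495105 (1973 bp), its total signal was 28659 and its highest pileup 101. In replicate 2 it ran over chr10:107493204-107494905 (1702 bp), its total signal was 42848 and its highest pileup 83. Myf6 thus had a short peak with a high point, at percentile 14.5 and 1.69 of peak length. By total signal the mean percentile was 49.6 ± 3.22, and by highest pileup 89.1 ± 7.03 (SD, n = 2). The highest pileup lay at the same bases of the intron in both replicates, at 107493738 in replicate 1 and from 107493738 to 107493741 in replicate 2.

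The 200 bases around this point on the plus strand of GRCm38, chr10:107493638-107493837, are shown because the highest pileup fell within a tandem repeat. Capitals mark the repeat, 22 copies of a unit of 5 bases in a run of 110 bp from 107493654 to 107493763.
Myf6 at the highest pileup: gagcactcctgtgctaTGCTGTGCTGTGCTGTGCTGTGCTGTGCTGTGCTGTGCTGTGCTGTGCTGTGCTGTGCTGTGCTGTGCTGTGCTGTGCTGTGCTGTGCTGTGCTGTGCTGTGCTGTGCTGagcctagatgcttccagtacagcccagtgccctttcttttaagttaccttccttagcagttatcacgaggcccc

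Repeat masking covered 59.5% of this stretch, and the part of the repeat in the height of the pileup was not tested. By total signal per base the mean percentile of the Myf6 peak was 86.9 ± 8.14 (SD, n = 2).

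Myog, which switches precursors into differentiation, had a peak over its start site in each replicate, but at unequal strength. The gene lies on chromosome 1, from 134289989 to 134292548 on the plus strand. In replicate 1 the peak ran over chr1:134288890-134293409 (4520 bp), its total signal was 48384 and its highest pileup 45. In replicate 2 it ran over chr1:134288183-134292461 (4279 bp), its total signal was 53982 and its highest pileup 59. In replicate 3 it ran over chr1:134288848-134291201 (2354 bp), its total signal was 21494 and its highest pileup 32. The peak of replicate 3 was the shortest and stood near the lower limit of its list, where its total signal was 1.11 times the lowest one. The ratios were 3.39 and 2.23 in replicates 1 and 2. Percentiles by total signal were 73.8, 59.4 and 11.0, a mean of 48.1 ± 32.9 (SD, n = 3). Without replicate 3 the mean was 66.6. Replicate 3 lost its Myog peak when only the stronger 50% or the strongest 10000 peaks of each list were kept. The peak covered 100, 96.6 and 47.4% of the gene. Of the merged region, 44.2% was common to all 3 replicates, a smaller part than at Myf5. The highest pileup was in a coding exon in replicates 1 and 2, 398 to 401 and 312 to 315 bp after the start site. In replicate 3 it was 374 to 404 bp before the start site.

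The 200 bases around the highest pileup of replicate 3, chr1:134289500-134289699 on the plus strand, are shown because this was the only 1 of the 12 peaks with CAGCTG in such a window. Capitals mark CANNTG.
Myog upstream, replicate 3: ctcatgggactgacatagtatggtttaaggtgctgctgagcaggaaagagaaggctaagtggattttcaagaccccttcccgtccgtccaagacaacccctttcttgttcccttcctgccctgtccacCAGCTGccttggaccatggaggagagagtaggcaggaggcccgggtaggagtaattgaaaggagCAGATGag

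CAGCTG was held by 17.5, 17.8 and 14.1% of such windows over all peaks of replicates 1, 2 and 3, and by 0 of 4, 0 of 5 and 1 of 3 windows of the muscle factor genes. CANNTG was held by 68.1, 68.7 and 66.5% of all windows, and by 2 of 4, 3 of 5 and 2 of 3 of theirs. The MEF2 spelling was in none of their windows, against 2.49, 2.36 and 2.95% of all windows. In replicates 1 and 2 the window just before Lbx1 was the same, that of Myf6 nearly so, and those of Myog overlapped in part. The windows of Myf5 did not overlap between replicates. Some sequences are thus counted more than once, and these counts are too small to set the genes apart.

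Lbx1 had a short peak just before the gene in replicates 1 and 2 and none in replicate 3. The gene lies on chromosome 19, from 45232684 to 45235812 on the minus strand. In replicate 1 the peak ran over chr19:45235590-45236975 (1386 bp), its total signal was 22069 and its highest pileup 70. In replicate 2 it ran over chr19:45235500-45237932 (2433 bp), its total signal was 38656 and its highest pileup 67. The peak reached only 222 and 312 bp into the gene, so most of it lay upstream. By total signal the mean percentile was 38.7 ± 2.89, and by highest pileup 80.0 ± 7.95 (SD, n = 2). As at Myf6, the highest pileup was at the same bases in both replicates, from 45236599 to 45236602, which is 787 to 790 bp before the start site and outside any protein-coding gene. The 200 bases around it, chr19:45236500-45236699 on the plus strand, had a GC content of 64.5% and held 2 E-boxes, marked in capitals.
Lbx1 upstream, replicates 1 and 2: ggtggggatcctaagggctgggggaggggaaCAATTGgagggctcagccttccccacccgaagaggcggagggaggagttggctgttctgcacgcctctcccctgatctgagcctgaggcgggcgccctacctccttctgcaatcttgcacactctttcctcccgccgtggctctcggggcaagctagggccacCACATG

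With the stronger 50% of each list Lbx1 had no peak, and with the strongest 10000 peaks it had one in replicate 2 only. Lbx1 also had 1 distal peak, in replicate 2, over chr19:45269812-45273108 (3297 bp). It lay upstream, with its nearer end 34000 bp from the start site, and stood at percentile 22.1 by total signal. No other replicate had a peak there. Over the 3 replicates the 7 genes had 2 distal peaks in all, each found in a single replicate.

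**Figure D2:**
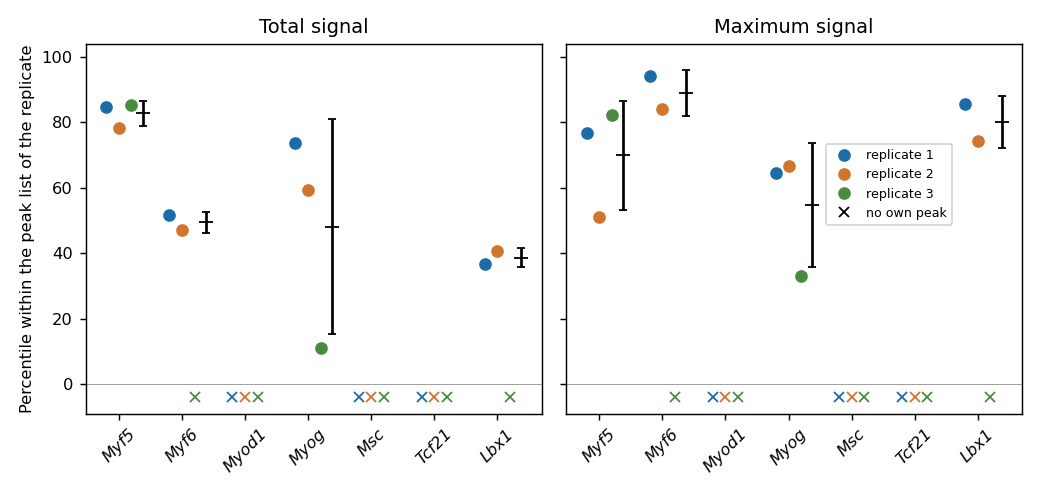
Percentile of each gene's own peak within the peak list of the replicate, by total signal (left) and by maximum signal (right); points are replicates, horizontal bars with whiskers are the mean and SD over the replicates with a peak (n = 3 for Myf5 and Myog, n = 2 for Myf6 and Lbx1), and crosses below 0 mark replicates without a peak of the gene's own in its window. Myf5 leads by total signal, with a mean of 82.8, whereas Myf6 leads by maximum signal, with a mean of 89.1.

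Order of the 4 marked genes depended on the measure. By total signal Myf5 stood above the others in each replicate where both had a peak, and Myf6, Myog and Lbx1 lay within the spread of Myog. By highest pileup Myf6 and Lbx1 stood above Myf5 and Myog in replicates 1 and 2, and the ranges of Myf6 and Lbx1 overlapped. The protein-coding genes whose strongest peaks had percentiles closest to those of Myf5 over the 3 replicates were Ncam1, Emx2 and Myom1, at Euclidean distances of 1.03, 1.05 and 1.57 percentile units. They were picked as the closest among the 3374 genes with a peak in all 3 replicates, and close percentiles do not show a shared function.

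Myod1, Msc and Tcf21 had no peak near them. The nearest peak to the body of Myod1, the namesake of the family, was 137.5 kb upstream in replicate 1 and 137.6 kb upstream in replicate 2, both nearest to the start site of Ush1c. In replicate 3 it was 621.1 kb away. From Tcf21 the nearest peak was 157.6, 157.2 and 182.9 kb away in replicates 1, 2 and 3, each time nearest to Slc2a12. From Msc it was 241.1, 185.7 and 131.0 kb away. The last of these, chr1:14620416-14622345 (1930 bp) in replicate 3, was the only peak assigned to Msc. It lay downstream, beyond the end of the gene, at percentile 12.7 by total signal, with a total signal of 21847 and a highest pileup of 36. Thus the nearest peak to Msc, Tcf21 and Myod1 was over 100 kb away in each replicate, against 75.2 kb for Lbx1 in replicate 3, and windows widened to 20 kb on either side still held no peak for them. Within 150 kb of its start site Tcf21 had no peak in any replicate, Myod1 had 1, 1 and 0 and Msc 0, 0 and 1. Of all protein-coding genes, 37.0, 41.2 and 44.5% had no peak within that distance in replicates 1, 2 and 3. In no replicate was a peak assigned to Myod1 or Tcf21, 2 of the 7 genes, and this was so for 66.2% of all genes.

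The marked genes had 2 to 4 peaks within 150 kb, their own included. Within 150 kb of its start site Myf5 had 2 peaks in each replicate, its own and that of Myf6 in replicates 1 and 2, and its own and 1 nearest to Lin7a in replicate 3. Myog had 4, 4 and 2, of which the others were nearest to Mybph, a myosin-binding protein gene, or Adora1. Lbx1 had 3, 4 and 2, which were its own peaks, the distal one of replicate 2 included, and peaks nearest to Btrc. The median over all protein-coding genes was 1 in each replicate, with an upper quartile of 4 in replicate 1 and 3 in replicates 2 and 3. The marked genes were named for having a peak, which is counted here, so these numbers do not set them apart from other genes.

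Replicate 3 lacked the peaks of Myf6 and Lbx1 and had a weak one at Myog. Over all regions, recurrence in replicate 3 fell as GC content rose. Of 11545 regions with a peak in both replicates 1 and 2, 77.2% had one in replicate 3. When these regions were put in 10 groups by GC content, the share fell from 99.0% in the lowest group to 38.6% in the highest. The Lbx1 region had a GC content of 58.0%, above 98.4% of all regions, and was in the highest group. The regions of Myf6 (51.1%) and Myog (52.3%) were in a group where 62.1% had a peak in replicate 3. Myf6, which lacked one there, had the lower GC content of this pair. The Myf5 region, at 45.1%, was in a group where 95.5% did. Strength also differed, since Myf6 and Lbx1 had the lower total signals in replicates 1 and 2. Their percentiles were 51.8 and 47.3 for Myf6 and 36.7 and 40.8 for Lbx1, against 73.8 and 59.4 for Myog. Myf5 stood higher still. The part of GC content or of strength in the missing peaks was not tested at single genes.

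**Figure D3:**
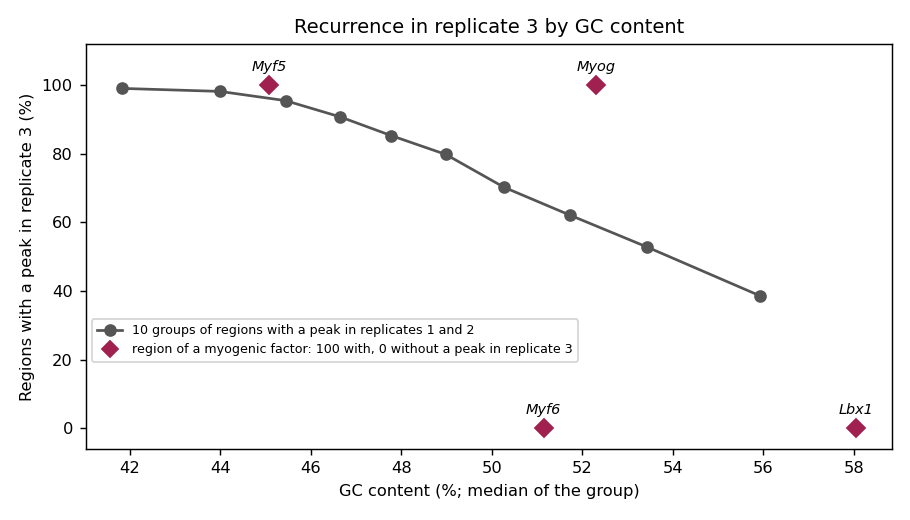
Share of regions with a peak in replicate 3 among those with a peak in replicates 1 and 2, by GC content in 10 groups of equal size (line), with the 4 regions of the muscle factor genes at 100 where replicate 3 had a peak and at 0 where it did not. The share falls from 99.0 to 38.6%, and Lbx1 lies farthest to the right, at 58.0%.

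Other genes of the muscle pathway were counted by the same window rule. Of 10 genes that act before or beside the muscle factors, 9, 10 and 9 had a peak in replicates 1, 2 and 3, on average 93.3 ± 5.77% (SD, n = 3). The share of all protein-coding genes was 24.9, 22.6 and 19.6%. A longer gene has a wider window, and the lists were not matched for gene length. Among them were Tbx1, which specifies head muscle precursors, Six4, Eya1 and Eya2, which act together in muscle precursors and placodes, Pax3 and Pax7 of muscle stem cells, and Met, the receptor that guides migrating precursors. The same 9 genes, these among them, were marked in every replicate, and Isl1 had a peak in replicate 2 only. The strongest peaks of Pax3, Eya2, Eya1 and Pax7 had mean percentiles of 97.9 ± 1.83, 95.0 ± 1.68, 93.2 ± 3.54 and 91.2 ± 9.27 by total signal (SD, n = 3), above that of Myf5. Tbx1, Six4 and Met stood lower, at 47.4 ± 33.4, 34.6 ± 29.4 and 31.4 ± 21.3 (SD, n = 3). Most of these genes are also used outside muscle, among them Pax3, Pax7 and Eya1 in neural crest or sensory placodes, and the part of muscle cells in their peaks was not tested.

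Of 23 genes of muscle differentiation, 9, 10 and 4 had a peak, a mean of 33.3 ± 14.0% (SD, n = 3), which was above the share of all genes in replicates 1 and 2 and below it in replicate 3. Only Mef2c, a partner of the MyoD family, Tnnt3, a fast troponin, Chrna1, a receptor subunit of the neuromuscular junction, and Mymx, a fusion factor, had a peak in all 3 replicates. Their mean percentiles were 69.6 ± 21.8, 87.5 ± 4.43, 18.97 ± 9.34 and 66.8 ± 41.7 (SD, n = 3). The strongest peak in the window of Mymx was nearest to the start site of Slc29a1 in replicates 1 and 2. A peak was found in replicates 1 and 2 but not in replicate 3 at Mymk, Des, Tnnt1, Tnni1 and Cacna1s, and in replicate 2 alone at Mylpf. The peaks of Des, Tnnt1, Cacna1s and Mylpf were nearest to the start sites of Speg, Ppp1r12c, Kif21b and Tbc1d10b, so their windows do not assign them. The other 13 genes, which included the sarcomere genes Actc1, Acta1, Myh3, Myh8, Ttn and Neb, had no peak in any replicate. Of the 12 regions of these 23 genes with a peak in replicates 1 and 2, the 6 that lacked one in replicate 3 had a median GC content of 52.5%, and the 6 that had one 50.2%.

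Marker lists of other tissues gave the setting of these counts. Facial mesenchyme genes had a peak in 18, 18 and 15 of 18 cases in replicates 1, 2 and 3, and surface epithelium genes in 7, 7 and 4 of 10. Endothelium genes did so in 4, 2 and 3 of 8, sensory neuron genes in 2, 3 and 1 of 8, and heart muscle genes in 3, 3 and 0 of 7. Adult kidney genes, counted because of the source name, had a peak in 28.6, 28.6 and 14.3% of 14 cases, against the 24.9, 22.6 and 19.6% of all genes, and Umod, Slc12a3 and Nphs1 had none in any replicate. Aqp1, a water channel, and Slc12a1, a salt transporter, had one in each replicate, that of Slc12a1 nearest to the start site of Dut. The strongest peak of Aqp1 was nearest to its own start site. By total signal the mean percentiles were 89.1 ± 14.9 for Aqp1 and 29.4 ± 24.7 for Slc12a1 (SD, n = 3). Aqp2, another water channel, and Pax8, a kidney transcription factor, had one in replicates 1 and 2, that of Pax8 nearest to Psd4. Tcf21, which kidney stroma and podocytes also express, had none either. The muscle factor genes, at 57.1, 57.1 and 42.9%, stood between the mesenchyme list and all genes in each replicate. So did the surface epithelium and endothelium genes, and the epithelium genes stood above the muscle factor genes in replicates 1 and 2. No test was made between the lists, which were not matched for gene length.

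**Figure D4:**
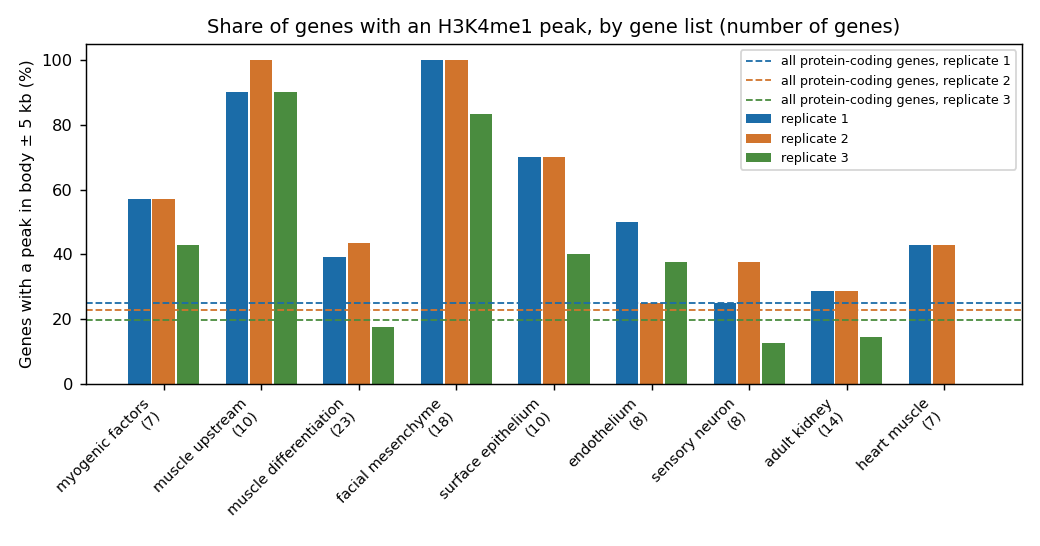
Percentage of the genes of each list with an H3K4me1 peak in the gene body or 5 kb on either side (bars, 1 per replicate, number of genes in brackets), with the percentage of all protein-coding genes as dashed lines (24.9, 22.6 and 19.6%). The 10 upstream genes and the 18 facial mesenchyme genes stand highest. The 7 myogenic factors lie between them and the dashed lines, as do the surface epithelium and endothelium genes. The 23 muscle differentiation genes lie close to the line in replicate 3 (17.4% against 19.6%).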

How the data were processed

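H3K4me1 was profiled by CUT&Tag in dissociated whisker pads. The submitters' processing notes name Bowtie2 2.3, SAMtools 0.1.19, bedtools, SEACR 1.3 and mm10. The authors ran SEACR on each sample by itself, in its stringent mode, with no IgG control and a limit of the top 1% of blocks. The paper left out the control because of poor fragment lengths in IgG replicate 1 and low reproduction of peaks. It also tried looser limits, and its figures show the 1% limit. The deposited signal values are the fragment pileup summed over each peak and its highest pileup, not scaled to depth, and their number of reads is not in the lists. The number of peaks therefore follows the number of blocks.

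The 3 H3K4me1 lists were compared with the GENCODE vM21 annotation of GRCm38, the build of mm10. Coordinates are 1-based, and for counts over all genes the start site is the 5′ end of the gene. Percentiles are ranks within a list. Peaks of different replicates were merged when they overlapped by at least 1 bp. Windows of 200 bp were centred on the highest pileup. Overlap functions were tested on simulated data. Python 3.11.15, numpy 2.4.6 and pandas 2.3.3 were used.

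The 7 genes and the 8 other lists, of 98 genes in all, were chosen with earlier results of these data known. All 7 genes were named, as were upstream and differentiation genes with a peak in all 3 replicates or needed as exceptions. The nearest start sites and the 3 genes closest to Myf5 in peak percentiles were named too. Values of some list genes are not reported here by themselves, although the genes stay in the counts. No test was run, since there is 1 group, and comparisons rest on counts and on the spread over the replicates. Alternatives were other strengths, flanks, reach, anchors, overlaps, measures and leaving out each replicate.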

Additional observations from a re-analysis of the deposited data

How the results depend on the processing

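For 10 results, 53 values were recomputed under other settings, of which 41 stayed within 1.5 times the count or within 1 SD of the replicates and 12 did not. Keeping the stronger 50% of each list left a mean of 2.00 peaks of the muscle factor genes in place of 4, 1 region with a peak in all 3 replicates in place of 2, and a mean of 3.67 muscle differentiation genes in place of 7.67, since fewer peaks entered. The strongest 10000 peaks also left 1 region, that of Myf5. Leaving out each replicate gave 2 to 4 regions shared by the others, with 4 without replicate 3. The mean percentile of Myf5 was 70.0 by maximum signal and 65.2 by total signal divided by length, against 82.8 by total signal. The same measures gave 89.1 and 86.9 for Myf6, against 49.6, and 80.0 and 77.1 for Lbx1, against 38.7. Windows of 300 bp held CAGCTG in 2 peaks in place of 1. These windows and leaving out a replicate for the percentiles were chosen after seeing the data. No paired analysis was possible because the files used here hold H3K4me1 alone, so that there is 1 group and the IgG samples of the same pads were not analysed. With 3 pads, no IgG and a depth not measured per library, an absent peak sets no limit on the mark.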
